A study of Mus musculus with 36 samples.

Results

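Of the 36 bulk RNA-seq libraries of the study, 6 were set against each other here: the 4 day 3 libraries of the *Tet1* KO lines and the 2 day 3 libraries of the *Tet1* catalytic mutant (MUT) lines. They were chosen by genotype, day and count table, with no use of any measured value. All lines are mouse ESCs of an F1 cross of C57BL/6 and 129S6 (B6129S6F1), labelled with the allele *Tet1* tm1Koh, and all were differentiated towards anterior neural progenitor cells (antNPCs) in serum-free N2B27 medium with 10 ng/ml bFGF up to day 3. KO1 and KO15 are homozygous KO lines, each sequenced in experiment 1 and again, from a second differentiation, in experiment 2. CM59 and CM69 are MUT clones made by Cas9 homology directed repair in the WT line WT7, and each was sequenced once, in experiment 3. An experiment here is one deposited count table.

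Because KO was measured in experiments 1 and 2 and MUT in experiment 3, the genotype and the experiment cannot be told apart from these 6 libraries. Each gene was therefore read beside the WT libraries of the same tables. WT7 and WT34 gave 4 day 3 libraries in experiments 1 and 2, and WT70, labelled only as WT, gave 1 day 3 library in experiment 3. The difference of WT7 and WT34 from WT70 is called the WT difference below, and the KO to MUT difference less the WT difference is called the difference of effects. The 4 KO libraries come from 2 lines and each MUT line is 1 clone, so n counts libraries, and the p-values measure the spread between these libraries.

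TET1 is a dioxygenase that oxidises 5-methylcytosine in DNA, the first step of one route of active demethylation, and it also has functions that need no catalysis. In the mouse embryo, cells of the epiblast either become ectoderm, the default source of neural cells, or pass through the primitive streak into mesoderm and endoderm under Nodal and Wnt signals. The question the direct comparison addresses is which transcripts differ between cells with a disrupted *Tet1* gene and cells that keep a full-length *Tet1* transcript with a changed active site.

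The bases that separate the MUT lines from their WT7 parent are shown first, since they define one side of the comparison. All lie in exon 9 of 11 of the transcript Tet1-201, within coding sequence, on the minus strand of chr10 (mm10). The guide is shown with its PAM in capitals, on the plus strand at chr10:62814460-62814482. The WT and donor stretches are shown on the coding strand at chr10:62814436-62814521, with the bases that differ in capitals.
guide: gtgaatgtccttgtgagaatGGG
wild-type *Tet1*: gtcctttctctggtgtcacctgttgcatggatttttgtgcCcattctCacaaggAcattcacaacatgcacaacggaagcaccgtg
repair donor: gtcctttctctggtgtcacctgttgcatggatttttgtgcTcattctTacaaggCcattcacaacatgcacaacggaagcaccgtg
Of the 95 donor bases, 86 lie in the exon. The 3 changes are C4851T, C4858T and A4865C, counted from the first coding base, with the reference base first. They fall in codons 1617, 1620 and 1622, and all 3 lie within the guide site or its PAM.

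*Tet1* itself (ENSMUSG00000047146.17, chr10:62804570-62908996) was lower in KO than in MUT. In CPM (counts scaled to the size of the library with TMM factors), the KO level was 57.8 in KO1 and 66.6 in KO15 in experiment 1, and 62.8 and 72.7 in experiment 2. In MUT it was 320 in CM59 and 251 in CM69, beside 230 to 255 in the 5 WT libraries. The KO libraries thus lay below every other library without overlap, whereas CM69 lay within the WT range and CM59 above it. The log2 fold change of KO over MUT was -2.13 (SE 0.12, adjusted p = 8.8e-12), against a WT difference of -0.05, and the difference of effects was -2.08 (adjusted p = 1.74e-06). In TPM, which corrects for the length of the transcripts that Salmon assigned, the levels were closer together, at 18.6 and 21.0 in KO in experiment 1, 21.7 and 25.0 in experiment 2, and 36.6 and 29.2 in MUT. On the log2(TPM + 1) scale the difference by limma was -0.59 (adjusted p = 0.00532), short of 1 in size. The other TET genes differed less, with log2 fold changes of -0.23 for *Tet2* (adjusted p = 0.488) and -0.46 for *Tet3* (adjusted p = 0.00552), neither beyond 1. *Dnmt3b*, a de novo DNA methyltransferase, stood at -0.50 (adjusted p = 0.000118), also short of that size.

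A gene was called when its adjusted p in edgeR's quasi-likelihood test was under 0.05, over the 21601 genes tested, and its log2 fold change was beyond 1 in size. Between KO and MUT 705 genes were called, 362 higher in KO (1.68% of the tested genes) and 343 lower (1.59%). Across the WT libraries of the same experiments 7 genes were called, all higher in WT7 and WT34 (0.0324%), while 1510 genes had an unadjusted p under 0.05 there, against 5100 between KO and MUT. The 7 were *Meg3*, *Rian*, *Mirg*, *Cdkn1c* and 3 predicted genes, and *Meg3* stood at 1.2 CPM in WT70 and at 363 to 804 CPM in the other 10 libraries of the day. None of the 7 was called between KO and MUT. WT70 is a single library and its own spread could not be measured. Over all tested genes the standard deviation of the log2 fold changes was 1.016 across the WT libraries and 0.943 between KO and MUT. The lower count of WT calls therefore does not show that the WT libraries differed less.

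The WT difference was 1 or less in size on the log2 scale for 590 of the 705 genes, or 83.7%, beside 87.8% of all tested genes. It went the same way as the KO to MUT difference, and beyond 1, for 106 genes, or 15%, beside 7.5% of all tested genes. For 9 genes it went the opposite way, or 1.28% beside 4.73%. The 106 genes whose WT libraries moved alongside, 77 of them higher and 29 lower in KO, are therefore named as such wherever they appear. The direct test of the difference of effects called 85 genes (0.394%), which include the 7 genes called across the WT libraries, all low in WT70. Of the 85, 46 were also called higher in KO than in MUT (0.213%) and 27 lower (0.125%), and for 72 of these 73 genes the WT difference was 1 or less in size. The 4 KO libraries and 2 MUT libraries did not overlap in CPM for 689 of the 705 genes, beside 34.4% of all tested genes. With 4 libraries against 2, an exact permutation test of a single gene cannot go below p = 0.0667 (two-sided), so the calls rest on the spread shared across all 36 libraries.

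**Figure D1:**
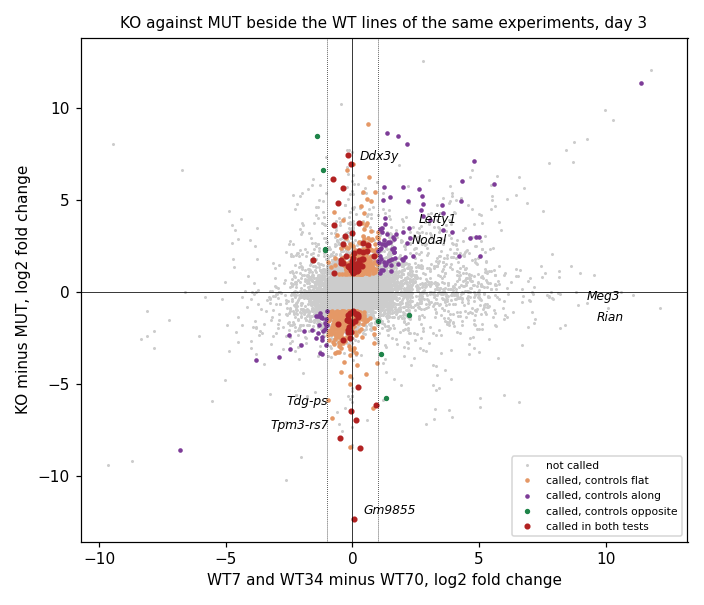
Each point is 1 of the 21601 tested genes, with the WT difference (WT7 and WT34 minus WT70, log2) on the horizontal axis and the KO minus MUT log2 fold change on the vertical axis. Genes called in both tests, in red, lie near the vertical axis, genes whose controls moved along, in purple, lie outside the dotted lines at 1, and *Meg3* and *Rian* lie far to the right without a call between KO and MUT.

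Depth did not separate the groups: the KO libraries held 15109619 to 22777852 counts, the MUT libraries 20485982 and 23224478 and the 5 WT libraries 12780148 to 26307363. Mitochondrial transcripts took 1.51 to 2.05% of counts in the 11 day 3 libraries. In a principal component analysis of these 11 libraries, the first component (25.1% of variance) put the KO libraries at -61.2 to -32.9. It put the MUT libraries at 22.0 and 27.2, among the WT libraries at 20.5 to 43.0. The second component (18.7%) put the libraries of experiment 1 at 20.75 to 52.7 and all others at -36.5 to -1.54. The third (10.7%) put the MUT libraries at 35.3 and 28.2, above all others at -50.7 to 15.8. The root mean square log2 distance was 0.535 between the MUT libraries, 0.57 to 0.712 between KO libraries and 0.668 to 0.843 between KO and MUT libraries. The WT70 library lay 0.605 to 0.718 from the WT7 and WT34 libraries, so some KO to MUT pairs were no further apart than WT pairs across experiments.

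Transcription factors of the primitive streak, the site where epiblast cells ingress to form mesoderm and endoderm, were in large part higher in KO than in MUT. Of 20 such genes tested, 12 were higher in KO and none was lower, with a median log2 fold change of 3.23 beside a median WT difference of 0.59 (all tested genes, -0.01 and 0.01). For 4 of the 12, *Evx1*, *Sp5* and *Sp8* among them, the WT difference was beyond 1 in the same direction. None of the 20 passed the test of the difference of effects. Of 40 markers that an embryo atlas gives for the primitive streak, a list the study used, 16 were higher in KO and none was lower (median 0.84). The genes were chosen with earlier results of these data known, so the count describes the list and is not an independent test.

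*T* (Brachyury, ENSMUSG00000062327.10, chr17:8434423-8442496), which marks the streak and nascent mesoderm, stood at 220.5 and 197 CPM in KO1 and KO15 in experiment 1 and at 194 and 212 CPM in experiment 2. In MUT it stood at 9.02 CPM in CM59 and 4.79 CPM in CM69, and in the WT libraries at 1.75 to 4.30 CPM. The KO libraries were thus far above both MUT libraries, and both MUT libraries were above all 5 WT libraries. The log2 fold change of KO over MUT was 4.97 (SE 0.55, adjusted p = 9e-07) with a WT difference of 0.73, and the difference of effects was 4.24 (adjusted p = 0.176). The MUT libraries alone against WT70 gave 1.97 (SE 0.94, adjusted p = 0.82), which did not pass.

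*Eomes*, a T-box factor needed for endoderm and for ingression, was less even among the KO libraries. It stood at 396 and 378 CPM in KO in experiment 1 and at 154 and 210 CPM in experiment 2, against 33.8 and 19.6 CPM in MUT and 8.42 to 18.6 CPM in WT. The KO to MUT difference was 3.35 (SE 0.47, adjusted p = 2.16e-05), 3.87 with experiment 1 alone and 2.78 with experiment 2 alone. Both MUT libraries again exceeded every WT library in CPM, whereas in TPM CM69 (2.63) was below WT7 in experiment 2 (2.925). The difference of effects was 2.62 (adjusted p = 0.116).

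*Mixl1*, a homeobox gene of the streak, stood at 59.2 and 52.6 CPM in KO in experiment 1 and at 31.3 and 48.4 CPM in experiment 2, against 1.71 and 1.06 CPM in MUT. Its log2 fold change was 5.10 (SE 0.54, adjusted p = 4.98e-07), and its difference of effects of 4.53 missed the threshold (adjusted p = 0.0548). *Foxa2*, a factor of the anterior streak and endoderm, stood at 50.5 to 58.1 CPM in KO, at 4.34 and 3.56 CPM in MUT and at 1.15 to 3.29 CPM in WT. Here too the MUT libraries were above every WT library and far below every KO library, and the KO to MUT difference was 3.79 (SE 0.41, adjusted p = 7.21e-07).

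The organizer genes *Gsc* and *Lhx1* showed the same gap, with log2 fold changes of 4.33 and 4.72. *Gsc* stood at 11.9 to 14.5 CPM in KO and at 1.02 and 0.38 CPM in MUT. *Cdx1*, a posterior homeobox gene, had 43 counts in the 4 KO libraries together and none in MUT, which puts KO at least 8.89-fold higher when 3 counts over the MUT group are taken as the floor (a limit of counting error only), and its adjusted p of 0.0112 rose to 0.0952 without CM59 and 0.13 without CM69. *Evx1*, a posterior streak gene, differed by 5.17 (SE 0.59) with controls that moved along (1.49). *Nkx1-2* was the lowest of the called streak genes at 1.51. *Mesp1*, a gene of nascent mesoderm, reached 0.63 CPM at most in KO and was not called (3.10, SE 1.54, adjusted p = 0.23), and *Tbx6* and *Msgn1* of presomitic mesoderm stood at -0.20 and -0.64 without a call.

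**Figure D2:**
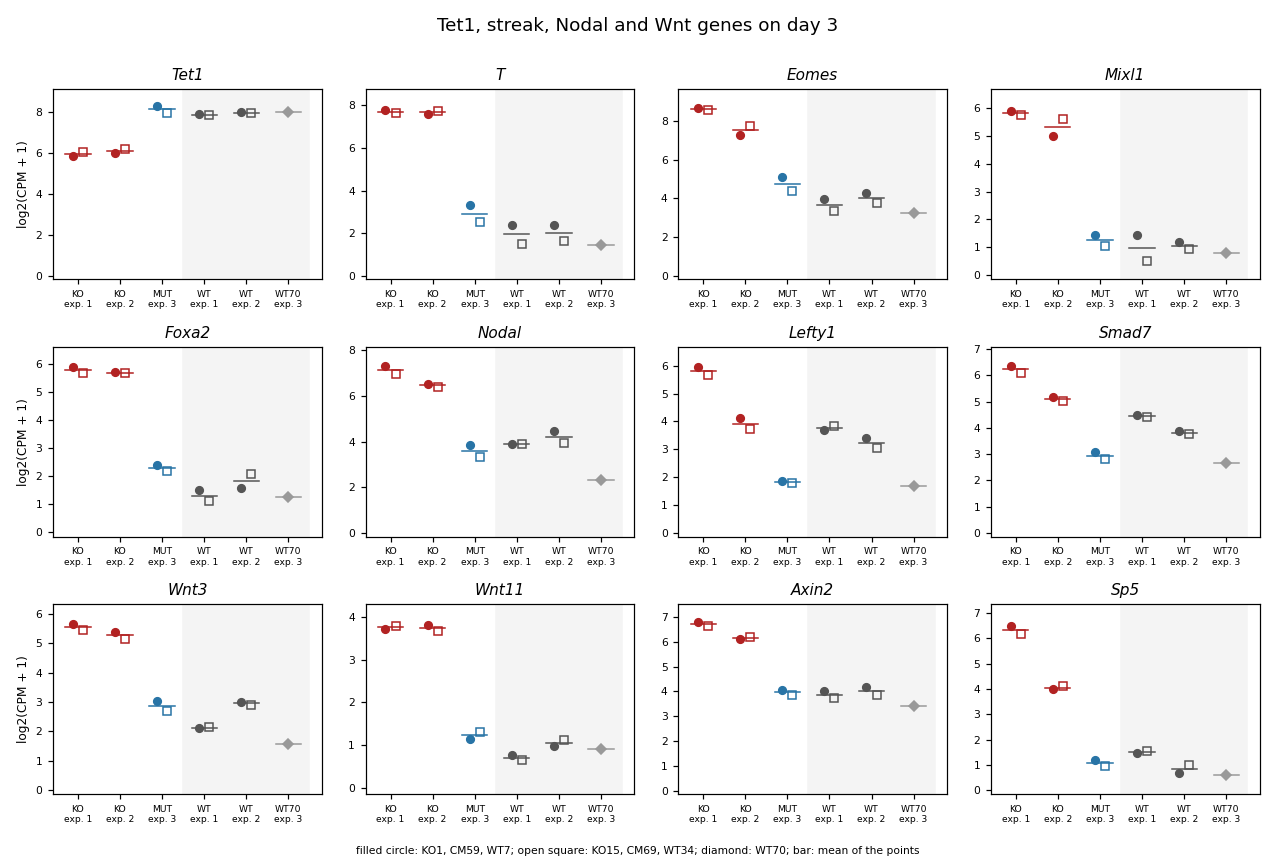
The vertical axis is log2(CPM + 1) of each day 3 library, on a scale of its own in each panel, for *Tet1* and streak, Nodal and Wnt pathway genes. Points are libraries, shapes are cell lines, bars are means and the WT libraries are shaded. The KO points of *T* lie at 194 to 220.5 CPM and the MUT points at 9.02 and 4.79 CPM, with *Tet1* reversed.

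In the Nodal pathway the calls fell on the ligand, its co-receptor and the feedback genes, and not on receptors or SMAD transducers. Of 16 ligands, receptors and transducers tested, 3 were higher in KO (*Nodal*, *Tdgf1* and *Gdf3*) and none was lower, with a median of 0.17. *Nodal* stood at 154 and 122 CPM in KO in experiment 1, at 90.8 and 82.0 CPM in experiment 2, at 13.6 and 9.04 CPM in MUT and at 13.7 to 20.7 CPM in WT7 and WT34. In WT70 it stood at 4.00 CPM, below every other library. The KO to MUT difference was 3.29 (SE 0.31, adjusted p = 9.68e-08), but the WT difference was 1.99 in the same direction, and the difference of effects of 1.30 did not pass (adjusted p = 0.403). Both MUT libraries were thus below every WT7 and WT34 library and above WT70, so the sign of the MUT difference depends on which WT line it is set against. *Tdgf1*, which encodes the co-receptor Cripto, differed by 3.72 with a WT difference of 1.28. *Gdf3*, a ligand that pairs with Nodal, differed by 1.23 (SE 0.14, adjusted p = 1.11e-06) with a WT difference of 0.53, and with experiment 2 alone it fell short of the threshold of 1 (0.94).

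Of 14 feedback inhibitors and targets of Nodal, 11 were higher in KO and none was lower, with a median of 3.12, and the controls moved along for 7 of them (median WT difference 0.89). *Lefty1*, an extracellular Nodal antagonist, stood at 61.9 and 49.7 CPM in KO in experiment 1 and at 16.3 and 12.1 CPM in experiment 2. In MUT it stood at 2.63 and 2.42 CPM, close to WT70 at 2.16 CPM, whereas WT7 and WT34 stood at 7.17 to 13.2 CPM. The direct difference of 3.52 (SE 0.46, adjusted p = 7.79e-06) therefore stands beside a WT difference of 2.25, and KO15 in experiment 2 was below WT34 in experiment 1. *Lefty2* followed with 2.34 (WT difference 1.56), and without CM69 it was no longer called (1.94, adjusted p = 0.0914). The inhibitory SMAD gene *Smad7* differed by 2.89 (WT difference 1.63) and *Pmepa1*, another intracellular inhibitor, by 2.69 (WT difference 1.05). *Fst*, which encodes the activin antagonist follistatin, differed by 2.82 with a WT difference of 0.74, at 186 to 197 CPM in KO and 32.5 and 25.0 CPM in MUT. *Cer1*, an antagonist of Nodal, BMP and Wnt ligands made by endoderm, had 254 counts in KO and none in MUT. That puts KO at least 52.5-fold higher on the same floor, though without CM69 the adjusted p of *Cer1* was 0.0711. Its controls moved along, and its difference of effects did not pass (adjusted p = 0.922).

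Several Wnt ligands were also higher in KO. Of 17 ligands and R-spondins tested, 7 were higher in KO (*Wnt2b*, *Wnt3*, *Wnt5b*, *Wnt6*, *Wnt8a*, *Wnt9b* and *Wnt11*) and none was lower, with a median of 1.64 beside a median WT difference of 0.72. The controls moved along for *Wnt3*, *Wnt6* and *Wnt9b*. *Wnt11*, a ligand best known for acting without β-catenin, was the member that also passed the difference of effects. It stood at 12.3 and 12.8 CPM in KO in experiment 1 and at 13.1 and 11.7 CPM in experiment 2, against 1.22 and 1.49 CPM in MUT and 0.58 to 1.2 CPM in WT. Its log2 fold change was 3.20 (SE 0.40, adjusted p = 4.86e-06), with a WT difference of -0.02 and a difference of effects of 3.22 (adjusted p = 0.0164). The latter call was lost when either MUT library was left out (adjusted p = 0.0833 without CM59 and 0.0715 without CM69).

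*Wnt3*, the ligand that initiates the streak, stood at 49.4 and 42.6 CPM in KO in experiment 1 and at 41.4 and 34.9 CPM in experiment 2, against 7.21 and 5.52 CPM in MUT. WT7 and WT34 stood at 3.33 to 7.05 CPM and WT70 at 1.95 CPM. The MUT libraries thus overlapped with WT7 and WT34, and the difference of 2.72 (SE 0.43) stood beside a WT difference of 1.41. *Wnt8a*, a posterior ligand, was at 20.8 to 28.7 CPM in KO and at 4.05 and 2.46 CPM in MUT (2.95, SE 0.48, WT difference 1.00). *Wnt3a* was near the detection floor in every library (0.84 CPM at most) and was not called.

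Of 19 Wnt receptors and nuclear factors, *Fzd10* alone was called, at 2.64 (SE 0.30, adjusted p = 1.58e-06). The nuclear factors differed less than the threshold of 1: *Tcf7* by 0.52 (adjusted p = 0.0152), *Tcf7l1*, a repressor of Wnt targets, by -0.42 (adjusted p = 0.0499), and *Lef1* by 0.15 (adjusted p = 0.7). *Tcf7l1* stood at 74.9 to 118 CPM in KO and at 128 and 122 CPM in MUT, so the groups did not overlap, but KO15 in experiment 1 lay just below CM69. In TPM the groups overlapped, with KO15 in experiment 1 at 35.8 and CM69 at 29.8. The difference was -0.14 with experiment 1 alone (adjusted p = 0.653) and -0.68 with experiment 2 alone (adjusted p = 0.0151). Among 14 secreted or membrane antagonists, *Frzb* (1.25) and *Shisa3* (1.74, with controls along, no call without CM59 or CM69 at adjusted p = 0.114 and 0.286) were higher in KO and *Sfrp1* was lower. *Sfrp1* stood at 12.1 to 18.7 CPM in KO, at 50.6 and 53.6 CPM in MUT and at 43.1 to 72.4 CPM in WT, with a difference of -1.73 (SE 0.13, adjusted p = 1.59e-09) and a difference of effects of -1.14 (adjusted p = 0.00735, and 0.0512 without CM69).

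Of 17 targets of Wnt/β-catenin signalling, 6 were higher in KO and none was lower (median 0.97, median WT difference 0.10). *Axin2*, a feedback inhibitor and the most widely used readout of the pathway, stood at 109 and 98.2 CPM in KO in experiment 1 and at 69.2 and 71.6 CPM in experiment 2. In MUT it stood at 15.6 and 13.6 CPM, within the range of WT7 and WT34 (12.2 to 17.0 CPM) and above WT70 (9.60 CPM). Its KO to MUT difference was 2.55 (SE 0.25, adjusted p = 1.82e-07) and its difference of effects 1.95 (adjusted p = 0.0137). The difference of effects no longer passed with experiment 2 alone (1.64, adjusted p = 0.134), with WT7 as the only control (WT34 left out) or without CM69 (1.85). *Sp5*, a direct Wnt target, was called at 5.00 (SE 0.37) with controls that moved along (1.21), and its KO level fell from 89.0 and 71.0 CPM in experiment 1 to 14.8 and 16.2 CPM in experiment 2, against 1.27 and 0.98 CPM in MUT. *Nkd1*, another feedback gene, differed by 1.14, and without CM59 its adjusted p was 0.0723.

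Since TCF and LEF factors bind a short core, the letters CTTTGAT were searched on both strands of the RefSeq promoters (GRCm38.p6, 250 bases before to 50 after each start). They were present in 3.73% of 32851 promoter windows and in 2.73% of the 16834 windows of tested genes. Among promoters of genes called higher in KO they were in 11 of 275 (4%), and among those of genes called lower in 6 of 275 (2.18%). Of 33 marker genes with a promoter in the table, 3 held the core. It is shown in capitals for *Sp5*, which had the largest KO to MUT difference of the 3, from the window chr2:70474673-70474972, on the plus strand.
*Sp5*: ggcaaggccccCTTTGATcaggaaaatcc
The core began 104 bases before the start site of *Sp5*, and it was also found in the windows of *Foxa2* and *Mesp1*. These are matches of letters in one window per start site and do not show binding.

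FGF and BMP genes moved in both directions. *Fgf8*, made by the streak, was at 66.5 and 66.7 CPM in KO in experiment 1, at 72.4 and 53.4 CPM in experiment 2 and at 3.56 and 1.02 CPM in MUT. Its difference of 4.96 (SE 0.70) stood beside a WT difference of 2.18, since WT7 and WT34 ranged from 0.43 to 8.26 CPM. *Fgf5*, a ligand of the late epiblast, differed by 1.13 and was just under 1 in experiment 2 alone. The receptor gene *Fgfr2* went the other way, at 4.46 to 13.8 CPM in KO and 27.8 and 30.4 CPM in MUT (-1.65, SE 0.22), and passed the difference of effects (-1.63, adjusted p = 0.0252), a call lost without CM59 (0.0635) or CM69 (0.124). *Bmp7*, a ligand, was higher in KO and passed both tests, at 33.7 to 43.7 CPM in KO, 11 and 11.3 CPM in MUT and 11 to 14.9 CPM in WT (1.79, SE 0.13, adjusted p = 9.83e-10, difference of effects 1.52). *Bmp4* was called at 1.39 but not without CM59 (1.01, adjusted p = 0.187). The BMP antagonist gene *Chrd* differed by 2.31 (SE 0.36) and *Bmper*, a modulator of BMP, by -2.48 (SE 0.55), which was -4.36 with experiment 1 alone and -1.52 with experiment 2 alone, where it was not called (adjusted p = 0.0882). The *Tgfbr3* gene, which encodes the co-receptor betaglycan, stood at 72.9 to 80.5 CPM in KO and 16.9 and 15.5 CPM in MUT, and passed both tests (2.24 and 1.65).

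Pluripotency genes differed one by one. Of 15 naive genes, 3 were higher in KO (*Nanog*, *Esrrb* and *Dppa5a*) and none was lower. *Nanog*, which is also expressed in the posterior epiblast, stood at 215 and 204.5 CPM in KO in experiment 1 and at 194 and 160 CPM in experiment 2, against 29.0 and 24.0 CPM in MUT and 27.0 to 76.7 CPM in WT. The difference was 2.89 (SE 0.36, adjusted p = 4.22e-06), and the difference of effects of 2.09 missed the threshold (adjusted p = 0.0589). *Esrrb* (1.59, SE 0.21) was lower in both MUT libraries, at 5.6 and 4.28 CPM, than in every WT library (5.75 to 10.7 CPM). *Pou5f1*, common to naive and primed cells, differed by 0.35 (adjusted p = 0.184), and of 19 formative and primed genes 2 were higher in KO and none was lower (median -0.30). Of the cadherin genes that switch when cells leave an epithelium, *Cdh1* differed by 0.00 (SE 0.09) and *Cdh2* by -0.34 (SE 0.22), and none of the 18 genes of that list was called in edgeR's quasi-likelihood test, where 5 had an unadjusted p under 0.05, while DESeq2 called 1 higher and limma 1 lower.

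Neural genes were lower in KO than in MUT, in part. Of 29 genes of early neural ectoderm, 5 were lower in KO and 1 was higher, with a median of -0.34 (median WT difference -0.11). *Sox2*, a factor of neural and pluripotent cells, stood at 46.8 and 50.6 CPM in KO in experiment 1 and at 23.7 and 37.5 CPM in experiment 2. MUT stood at 112 and 109 CPM, within the WT range of 85.0 to 175 CPM, and the difference was -1.50 (SE 0.24, adjusted p = 8.88e-05). *Pax6*, of anterior neural progenitors, stood at 0.47 to 0.92 CPM in KO and at 4.19 and 3.95 CPM in MUT (-2.51, SE 0.37), while WT7 in experiment 2 was as low as 0.83 CPM. *Sox1*, an early neural marker, went the same way without passing (-1.30, SE 0.45, adjusted p = 0.061). *Otx2* and *Nes* differed by -0.30 and -0.06, neither called. Of 17 Notch pathway genes, 4 were higher in KO (*Hes1*, *Dll3*, *Notch3* and *Nrarp*, at 1.06 to 1.44) and 1 was lower, *Hes5*, a target in neural progenitors (-1.58). The median of the list was -0.48. Without overlap of the groups 9 members were lower and 6 higher, beside 4048 and 3391 of all 21601 genes tested. *Dll3*, at 1.06, was not called without CM59 or without CM69 (adjusted p = 0.145 and 0.219).

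Some neuronal genes were lower in KO than in MUT. Of 21 tested, 4 were lower in KO (*Tubb3*, *Elavl3*, *Stmn3* and *Neurod4*), of which *Tubb3* and *Elavl3* passed both tests, and 1, the neurofilament gene *Nefl*, was higher, with a median of -0.64 (median WT difference -0.18). *Tubb3*, a β-tubulin of neurons, stood at 20.7 and 26.5 CPM in KO in experiment 1, at 16.3 and 22.1 CPM in experiment 2, at 81.0 and 94.3 CPM in MUT and at 94.3 to 130 CPM in WT. The difference was -2.04 (SE 0.19, adjusted p = 5.42e-08) and the difference of effects -1.86 (adjusted p = 0.00385). Its calls in both tests remained under all 20 alternative fits. *Elavl3*, a neuronal RNA-binding protein gene, stood at 6.75 to 9.49 CPM in KO, 42.6 and 55.7 CPM in MUT and 47.8 to 66.5 CPM in WT, and passed both tests at -2.58 (SE 0.25) and -2.20 (adjusted p = 0.00918), the latter not without CM69 (adjusted p = 0.0797). Outside this list, among the genes named for the size of their difference, the tau kinase gene *Ttbk1* (-2.48 and -2.39), *Atcay* (-2.16 and -2.0) and the microtubule-associated kinase gene *Mast1* (-1.87 and -1.74) passed both tests too. Without CM59 or CM69 the difference of effects no longer passed for *Atcay* (adjusted p = 0.0585 and 0.105) or *Mast1* (0.0585 and 0.0797), whereas that of *Ttbk1* passed in every fit. *Nefl* stood at 150 to 272 CPM in KO against 45.2 and 38.1 CPM in MUT (2.36, SE 0.36). In the midbrain and hindbrain list of 20 genes, *Lmx1b* (-2.10) and *Irx3* (-1.05) were lower in KO, and *Cnpy1* (1.93) and *Fgf8* were higher. The call of *Irx3* was lost without CM69 (adjusted p = 0.281) and that of *Cnpy1* without CM59 or CM69 (0.166 and 0.168).

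**Figure D3:**
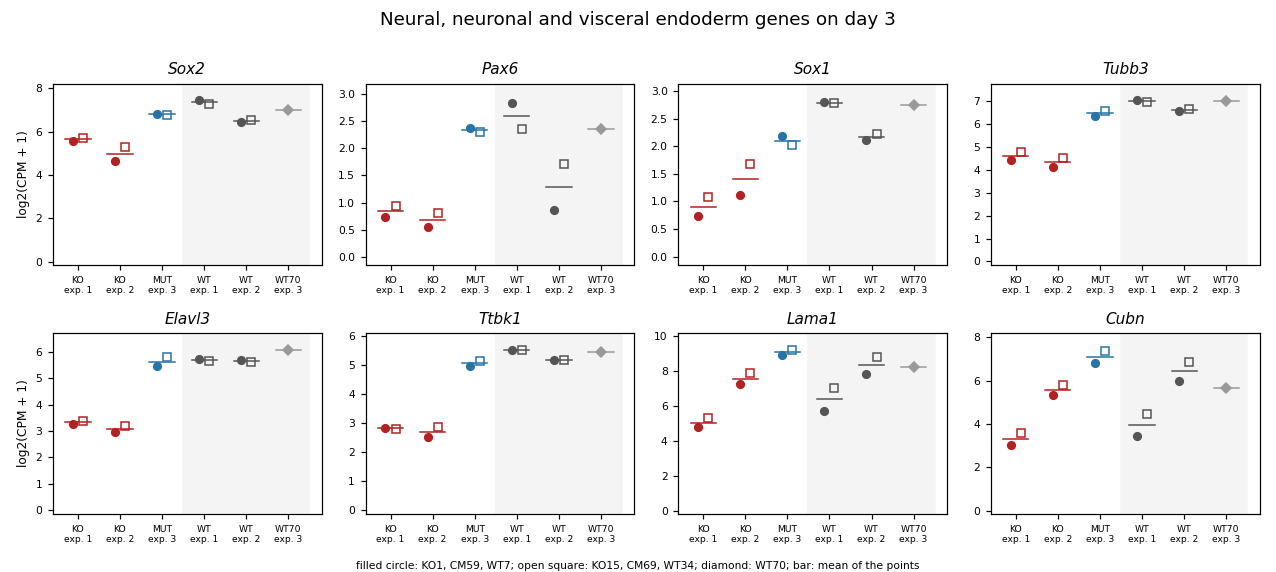
The vertical axis is log2(CPM + 1) of each day 3 library for neural, neuronal and visceral endoderm genes, drawn as in the plot of streak genes. For *Tubb3* the KO points at 16.3 to 26.5 CPM lie below the MUT points at 81.0 and 94.3 CPM, and for *Lama1* the KO points of the 2 experiments lie apart.

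Markers of other cells were counted the same way, and in bulk RNA fewer cells of a type cannot be told apart from less RNA per cell. Of 20 visceral endoderm genes tested, 10 were lower in KO than in MUT and none was higher, with a median of -1.23 (median WT difference -0.35), and none passed the difference of effects. *Lama1*, a laminin gene of basement membrane, stood at 26.8 and 38.4 CPM in KO in experiment 1, at 151 and 238 CPM in experiment 2 and at 489 and 593 CPM in MUT. The WT libraries ran from 52.3 to 453 CPM, so MUT was above all of them, and the KO libraries of the 2 experiments did not overlap. In TPM, however, CM59 (24.3) was below WT34 in experiment 2 (31.65). The difference of -2.68 (SE 0.41) was -4.04 against KO of experiment 1 alone and -1.47 against KO of experiment 2 alone. *Cubn*, an endocytic receptor gene, differed by -2.75 and *Dab2*, an adaptor of the same pathway, by -1.99. The summed TPM of the list was 243 to 252 in KO of experiment 1, 373 to 391.7 in KO of experiment 2, 469 to 532 in MUT, 254 to 496 in WT7 and WT34 and 369 in WT70. Against KO of experiment 1 alone 11 of 19 genes of the list were lower, and against KO of experiment 2 alone 4 of 19. The part of these cells in the KO to MUT difference of *Lama1*, *Cubn*, *Dab2*, *Pdgfra* (-2.11) and *Gata4* (-1.46) was not tested.

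Of 20 definitive endoderm genes, 3 were higher in KO (*Foxa1*, *Foxa2* and *Cer1*, the last with controls along). In the same list 4 were lower, *Gata4*, *Cxcr4* and *Spink1* among them, and *Sox17* was not called (-1.08, adjusted p = 0.109). Against KO of experiment 1 alone 4 genes of the list were higher and 5 lower. Against KO of experiment 2 alone 3 were higher and 0 lower. *Gata4* kept its call in 7 of 20 alternative fits, and without CM69 the call of *Spink1* (adjusted p = 0.0849) was lost. Of 20 fibroblast feeder markers, 6 were lower in KO, among them *Acta2* (-2.10) and *Col1a1* (-1.34). Their summed TPM was 82.0 to 105 in KO and 91.9 to 109.5 in MUT, so the groups overlapped, and 122 to 183 in WT7 and WT34.

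**Figure D4:**
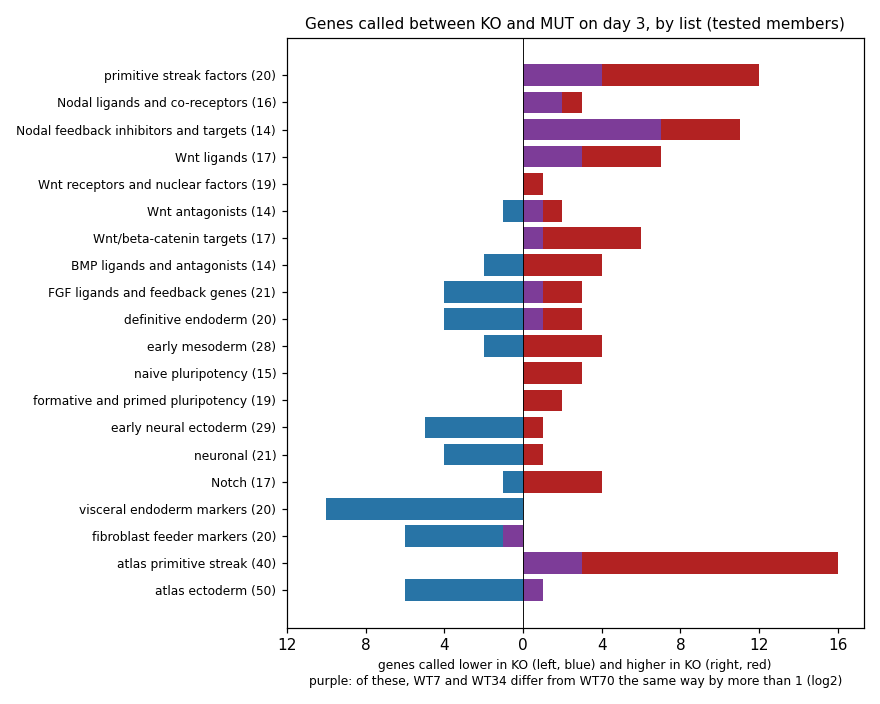
Bars count the tested members of each list (number tested in brackets) that were called lower in KO, to the left, or higher, to the right, with those whose controls moved along in purple. The streak factors reach 12 higher and the Nodal feedback genes 11 higher, and the visceral endoderm markers reach 10 lower.

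Some of the largest differences set whole lines apart. *Ddx3y* on the Y chromosome stood at 92.5 to 99.6 CPM in KO, at 1.41 and 0.17 CPM in MUT and at 42.6 to 54.0 CPM in the 5 WT libraries. *Eif2s3y* and *Uty* did the same, with KO to MUT differences of 6.97, 6.17 and 4.83 for the 3 genes in that order. *Kdm5d*, also Y-linked, was not called, at 2.29 and 2.11 CPM in MUT. The KO libraries were also 1.96 times WT7 and WT34 for *Ddx3y*, 2.12 times for *Eif2s3y*, 1.59 times for *Uty* and 1.54 times for *Kdm5d*. On the Y chromosome 6 of 19 tested genes were higher in KO and none was lower, and on the X chromosome 22 of 748 were higher and 19 lower. Over all 21601 tested genes 362 (1.68%) were higher and 343 (1.59%) lower.

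In the other direction, *Tpm3-rs7*, a tropomyosin-related gene at chr14:113314608-113316754, stood at 0.72 to 1.82 CPM in KO, at 144 and 140 CPM in MUT and at 134 to 163 CPM in WT. The pseudogene *Tdg-ps* stood at 0.00 to 0.55 CPM in KO and at 26.8 and 28.2 CPM in MUT. Reads of such copies are shared with their parent genes by estimate, so these values are uncertain, as are those of the X-linked copies *Xlr3a* and *Xlr3b*, whose controls moved along. The 705 genes called between KO and MUT, and no others, were searched for wide gaps after their values were seen. Of these, 9 had KO libraries more than 10 times above each of the other 7 libraries of the day, and 8 had KO libraries more than 10 times below. The 9 were *T*, *Foxa2*, *Mixl1*, *Gsc*, *Lhx1*, *Evx1*, *Evx1os* and 2 pseudogenes, and the 8 included *Tpm3-rs7*, *Tdg-ps* and *Amd2*. For 7 of the called genes the MUT libraries stood alone more than 10 times below, *Ddx3y* and *Eif2s3y* among them. *Cer1* is also counted in the 7, but with 0 counts in MUT and 0.0513 CPM in WT70 its gap was fixed by the zero and does not set the MUT libraries apart. Within 10 Mb of *Tet1*, 9 of 135 tested genes were called (6.67%, against 3.26% of all tested genes), 4 higher, *Nodal* among them, and 5 lower.

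**Figure D5:**
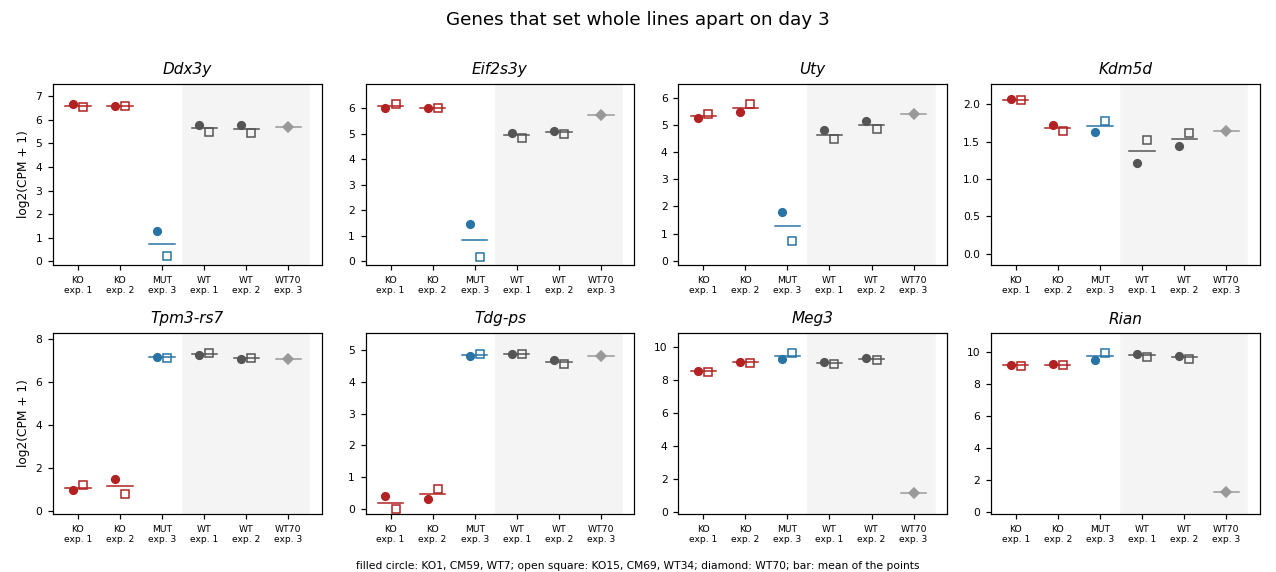
The vertical axis is log2(CPM + 1) of each day 3 library for Y-linked genes, for copies of other genes and for the imprinted transcripts that set WT70 apart, drawn as in the plot of streak genes. The MUT points alone are low for *Ddx3y*, the KO points alone for *Tpm3-rs7* and the WT70 point alone for *Meg3*.

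Where a called gene was higher in KO, the MUT libraries were below all 5 WT libraries for 88 genes, above all of them for 23 and neither for 251. Where it was lower in KO, MUT was above all WT libraries for 97 genes, below for 29 and neither for 217. Over all tested genes the MUT libraries were above all 5 WT libraries for 2422 genes and below for 2573, and the KO libraries were above for 1527 and below for 2075. By chance, 2 libraries of 1 experiment clear the WT range more often than 4 libraries of 2 experiments. The MUT and KO counts therefore do not show which genotype differed more from WT. Of the 20 streak factors, both MUT libraries exceeded every WT library in CPM for 8, and the KO libraries did so for 15. For Nodal feedback genes the counts were 1 and 10 of 14, and for Wnt/β-catenin targets 4 and 12 of 17.

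Some calls between KO and MUT depended on the fit. With limma on log2(TPM + 1) the calls of *Tet1*, *Gdf3*, *Cer1*, *Cdx1*, *Frzb*, *Nkd1*, *Bmp4*, *Bmper*, *Esrrb*, *Pax6*, *Dll3*, *Lmx1b*, *Irx3*, *Cnpy1* and *Gata4* were lost. With experiment 2 alone those of *Cdx1*, *Shisa3*, *Dll3*, *Spink1* and *Gata4* were lost, and with experiment 1 alone that of *Irx3*. The call of *Cubn* was lost without the experiment term, and that of *Xlr3b* when CM59 or CM69 was left out (adjusted p = 0.104 and 0.0622). For the difference of effects, *Wnt11*, *Sfrp1*, *Fgfr2*, *Atcay* and *Mast1* were also no longer called with experiment 2 alone.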

How the data were processed

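RNA was measured by poly(A) RNA-seq (stranded kit, single-end reads) in 36 libraries, of which 11 are of day 3. The authors trimmed reads with Trim Galore 0.6.4, quantified transcripts with Salmon 0.14.1 (mm10) and summed them per gene with tximport. The deposited expected counts (estimated counts) are unscaled, and 73.8% of values were exactly whole. The deposited TPM values, which the authors corrected for transcript length, served 1 alternative and the summed lists.

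Expected counts were rounded, and filterByExpr (minimum count 10, minimum total 15) left 21601 of 54281 genes. One edgeR 4.0.16 quasi-likelihood fit in R 4.3.3 with TMM factors held 16 group means, a term for experiment 2 against 1 and 19 residual degrees of freedom. Every p without another tool named is from this fit, with Benjamini-Hochberg adjustment. SE is the standard error of a log2 fold change. Groups of 1 library took the spread shared by all groups. The script was tested on simulated counts.

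Named genes were 44 panel markers, 10 genes per direction with the most extreme log2 fold changes among those called in both tests, without overlap of KO and MUT and with a mean of 5 CPM or more in the higher group (no predicted genes), 5 per direction called directly with controls along, and up to 4 called members of each list with the smallest p. A few genes that this rule names are not reported here. Other names were chosen after their values were seen. The libraries and the 47 lists were chosen with earlier results of these data known, and some lists hold genes the study picked from these libraries. Alternatives were DESeq2 1.42.0, RLE factors, no filter, a log2 threshold of 1.5, no experiment term, other sets of libraries, limma 3.58.1 on log2(TPM + 1) for genes of at least 1 TPM in 2 libraries, and each library left out.

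Positions are from GENCODE (mm10). Counting intervals and floors (3 counts over a group) cover counting error only. No 2 libraries agreed within sampling noise.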

Additional observations from a re-analysis of the deposited data

Results flagged for a closer look

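Among the named genes, 24 differed in their effect between the genotypes by the direct test of the difference of effects, beyond 1 in size on the log2 scale. Over all 21601 tested genes 85 did, among them the 7 called across the WT libraries, where WT70 stood apart. Up to 10 named genes per direction were chosen because they passed this test, so the 24 follows in part from that choice. For genes of the Y chromosome it was 7.04 for *Ddx3y*, 6.94 for *Eif2s3y* and 5.42 for *Uty*, and the MUT libraries were the ones that stood apart. For copies of other genes it was -7.04 for *Tpm3-rs7* and -6.39 for *Tdg-ps*, with the KO libraries apart, and for *Tet1* -2.08.

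Of signalling genes, it was 3.22 for *Wnt11*, 1.95 for *Axin2*, -1.14 for *Sfrp1*, 1.65 for *Tgfbr3*, 1.52 for *Bmp7* and -1.63 for *Fgfr2*. Of neuronal and cytoskeletal genes, it was -2.20 for *Elavl3*, -2.39 for *Ttbk1*, -2.0 for *Atcay*, -1.86 for *Tubb3*, -1.74 for *Mast1*, -1.10 for *Uchl1* and -1.02 for *Tubb2b*. Of the rest, it was 3.51 for the lipoxygenase gene *Alox15*, 3.02 for *Ldb2*, 2.25 for the protocadherin gene *Pcdh7*, 1.98 for the lipid phosphatase gene *Inpp5d* and -1.26 for *Trp53i11*. Without CM69 the call was lost for *Alox15* (adjusted p = 0.087), *Pcdh7* (0.0689) and *Tubb2b* (-0.90, adjusted p = 0.0516), and without CM59 or CM69 for *Trp53i11* (0.0585 without CM59 and 0.108 without CM69). *Tubb2b* kept it in 13 of 20 alternative fits, and *Uchl1* lost it with experiment 1 alone (-0.96). With WT7 as the only control, the call was lost for *Axin2*, *Atcay*, *Trp53i11* and *Tubb2b*.

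One library lay apart from the other 3 of its group, by Dixon's ratio of the gap to the range, in 8 of 252 groups of 4 libraries checked (3.17%, where chance gives about 1 in 20). In KO these were *Eif2s3y* (0.974, KO15 of experiment 1 high), *Foxa2* (0.897, KO1 of experiment 1 high) and *Mesp1* (0.842, KO15 of experiment 2 high at 0.63 CPM). In WT7 and WT34 they were *Nodal* (0.921, WT7 of experiment 2 high), *Esrrb* (0.842, WT7 of experiment 1 high), *Mast1* (0.856, WT34 of experiment 2 low), *Stmn3* (0.889, WT7 of experiment 1 low) and *Tfap2c* (0.952, WT7 of experiment 2 low).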

How the results depend on the processing

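The 705 calls between KO and MUT fell to 238 with limma on log2(TPM + 1) and to 401 at a log2 threshold of 1.5, and ranged from 401 (without CM69) to 726 with 1 library left out. With limma 64.7% of calls were higher in KO, against 51.3%. DESeq2 called 697, of which 629 were shared. The 73 genes called in both tests became 153 with DESeq2, 146 with experiment 1 alone, 48 with experiment 2 alone, 180 with day 3 libraries only, 42 with limma, 40 at 1.5 and 293 without a filter, and ranged from 30 (without CM69) to 100 with 1 library left out. The 85 calls of the difference of effects became 183 with DESeq2, 199 with experiment 1 alone, 56 with experiment 2 alone, 232 with day 3 libraries only, 55 at 1.5 and 419 without a filter, and ranged from 42 (without CM69) to 120 with 1 library left out. The 7 WT calls became 29 with DESeq2, 153 with experiment 1 alone, 69 with day 3 libraries only, 22 with limma, 215 without a filter and 0 with imprinted, Y-linked and predicted genes left out, and ranged from 7 to 8. No direction of a named gene's call was reversed in these fits, and the causes were not tested. Across named genes, 224 values lost their call and 151 gained one, while 4767 stayed on their side.

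WT70, a single library, could not be left out. No paired analysis was possible because KO and MUT are different lines with no shared replicate number that marks a shared source. Depth limits genes such as *Cdx1* and *Cer1*, which had 0 counts in MUT, and a missing call does not show that KO and MUT were alike.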

Other observations

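Housekeeping programmes were compared in the same way. None of 24 cholesterol synthesis genes was called between KO and MUT, with a median log2 fold change of -0.31 beside a median WT difference of 0.04, although 18 had an unadjusted p under 0.05. The KO libraries were below all 5 WT libraries for 12 of the 24 and the MUT libraries above all of them for 8, beside 2075 and 2422 of the 21601 genes tested. None of 27 genes of glycolysis and the hypoxia response was called (median 0.21, 13 with an unadjusted p under 0.05), although both MUT libraries were below every WT library for 20 of them, beside 2573 of those tested. Of 19 p53 targets, 12 heat shock genes, 20 immediate early genes, 15 mitochondrially encoded genes, 18 histone genes and 25 Polycomb genes, none was called in edgeR's quasi-likelihood test. In that test 27 of these 109 genes had an unadjusted p under 0.05, beside 5100 of all 21601 genes tested. The 27 were unevenly spread, with 13 Polycomb genes, 5 p53 targets, 5 heat shock genes, 2 histone genes, 1 immediate early gene and 1 mitochondrially encoded gene. DESeq2 and limma also called 0 genes of all these lists, but other sets of libraries called a few. With experiment 1 alone, 2 glycolysis genes, 1 p53 target and 1 immediate early gene were higher in KO and 1 Polycomb gene was lower. With experiment 2 alone 1 glycolysis gene was lower. With only the 6 compared libraries, 1 mitochondrially encoded gene and 1 histone gene were higher and 1 Polycomb gene was lower.

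Among 23 germline and piRNA pathway genes, 4 were higher in KO than in MUT and none was lower (median 0.75, median WT difference 0.18), the piRNA factor gene *Tdrd12* among them at 1.45 (SE 0.20, adjusted p = 1.94e-05). Of 40 imprinted genes, *H19* was higher (1.20, with a WT difference of 1.21, and no call without CM59 at adjusted p = 0.11, without CM69 at 0.202 or with experiment 1 alone at 0.73 and adjusted p = 0.287) and *Magel2* lower (-1.44, with a WT difference of -0.97). The Hox and Cdx list held 1 call, *Cdx1*, of 18. With limma on log2(TPM + 1) none of these calls remained, among 19 germline and piRNA, 36 imprinted and 6 Hox and Cdx genes tested there.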
